A study of Mus musculus with 273 samples.

Results

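miR-142a (mmu-mir-142a in the tables) and miR-223 (mmu-mir-223) are microRNAs of the blood lineage, and both were followed here through the day in liver and in 3 brain regions. They are 2 of the 1226 miRNA hairpins in the deposited count tables, and were chosen by name for a daily curve that they shared in liver. That curve is therefore described without a test, whereas the brain curves, the levels between tissues and the animal-to-animal variation were tested. The study collected right cortex, right striatum, hypothalamus and liver from wild-type male C57BL/6J mice, an inbred laboratory strain, aged 26 weeks. Sampling ran every 3 h for 36 h, so that the hours from ZT0 to ZT12 were sampled in a first and a second passage, 24 h apart. Small RNA was sequenced in 273 libraries, 78 of cortex, 46 of striatum, 72 of hypothalamus and 77 of liver, from 79 named animals. One striatum label spells its animal's name unlike all others and close to that of an animal of the same hour in the other tissues. It was kept as a separate animal, so the true number may be 1 lower and the pairs with striatum 1 higher. Zeitgeber time (ZT) counts the hours of a day of 24 h, so that 30 h is ZT6. ZT0 usually stands for lights on; the light schedule itself was not given in the sources used here.

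miRNAs are short RNAs that guide Argonaute proteins to complementary sites in messenger RNAs and lower their translation and stability. Each is cut from a hairpin whose 2 arms, 5p and 3p, can both act, and the seed (bases 2 to 8) sets most of the target choice. miR-142a is made in cells of all blood lineages and in tissue macrophages, such as Kupffer cells of the liver and microglia of the brain. miR-223 is made mainly in myeloid cells, above all neutrophils and monocytes, where it limits their maturation and activation. White blood cells leave and enter the circulation on a daily rhythm in mice.

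The mature sequences are shown because the counts add both arms of a hairpin, so that each value below stands for 2 different seeds. Sequences are from RefSeq for the GRCm38.p6 build, written 5′ to 3′ with the seed in capitals.
miR-142a-5p: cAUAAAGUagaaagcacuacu
miR-142a-3p: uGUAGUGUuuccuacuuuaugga
miR-223-5p: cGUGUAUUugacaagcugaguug
miR-223-3p: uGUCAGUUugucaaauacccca
The 4 seeds differ from one another, and 0 other mature miRNAs among the 1679 in the RefSeq table share any of them.

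The hairpins show how each pair of arms lies in its precursor, with the mature arms in capitals.
miR-142a hairpin: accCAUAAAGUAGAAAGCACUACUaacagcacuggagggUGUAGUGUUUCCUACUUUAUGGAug
miR-223 hairpin: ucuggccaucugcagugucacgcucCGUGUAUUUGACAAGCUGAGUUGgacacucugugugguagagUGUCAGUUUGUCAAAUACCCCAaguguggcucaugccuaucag
The miR-142a hairpin of 64 bases lies at chr11:87756864-87756927 on the plus strand, within the long noncoding gene Mir142hg (87755577 to 87757270). The miR-223 hairpin of 110 bases lies at chrX:96242817-96242926 on the plus strand, within exons of the noncoding gene F630028O10Rik (96239926 to 96243636). Another miRNA, miR-142b, is annotated on the opposite strand across the whole miR-142a hairpin (87756841 to 87756955). Its mature sequence is shown because reads counted without strand could not be told apart.
miR-142b: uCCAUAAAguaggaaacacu
Summed over the libraries of a tissue, miR-142b had 0 counts in liver, 5 in cortex, 2 in striatum and 7 in hypothalamus, against 309821, 119916, 50027 and 81733 for miR-142a. Whether the counting used strand was not given in the sources used here.

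Library totals ran from 1079380 to 5236177 counts, except in striatum, where the totals ran from 26341 to 4022070 and ZT9 replicate 6 was the lowest, with the next at 743902. Values are given in CPM, counts scaled to a library total of 1000000. miR-142a was deep in every tissue, with a median count between 1080 in striatum and 3868 in liver. miR-223 was shallow in brain, with a median count of 38.5 in cortex, 17 in striatum and 24 in hypothalamus against 150 in liver. Counting error alone therefore gave a coefficient of variation of 16.1% in cortex, 24.3% in striatum and 20.4% in hypothalamus for a library at the median, against 8.17% in liver. The only count of 0 for either miRNA was miR-223 in striatum ZT9 replicate 6, whose low total allows a level of up to 113.9 CPM. Reads carried no molecular identifiers that the labels mention, so these limits cover counting error only. The tissue labels matched their marker miRNAs: the hepatocyte list summed to between 248984 and 355747 CPM in liver and to at most 7511 CPM in any brain library. The neuron list summed to between 4.16 and 12.2 CPM in liver and to at least 1874 CPM in every brain library.

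In liver, both miRNAs were highest at ZT6 and lowest at ZT15. miR-142a averaged 1715 ± 405 CPM (SD, n = 12) at ZT6, with a lowest, median and highest library of 1312, 1591 and 2432 CPM. At ZT15 it averaged 1038 ± 75.8 CPM (SD, n = 6), with 938, 1024 and 1154 CPM in the same order. All 12 libraries at ZT6 lay above all 6 libraries at ZT15, and the means differed 1.65-fold. miR-223 averaged 75.4 ± 23.8 CPM (SD, n = 12) at ZT6, where its lowest, median and highest libraries held 53.3, 68.1 and 135.2 CPM. At ZT15 it averaged 40.1 ± 5.50 CPM (SD, n = 6), with 31.9, 40.4 and 46.5 CPM. Again the 12 and the 6 libraries did not overlap, and the means differed 1.88-fold. Both hours were picked as the extremes of these same values, so the separation is a description only. How many other miRNAs separate in this way was not counted. These samples are bulk tissue, in which fewer cells of a type and less RNA per cell cannot be told apart.

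Between these extremes the largest change from one hour to the next was the fall from ZT6 to ZT9. From ZT0 through ZT3 to ZT6, mean miR-142a in liver went from 1330 through 1538 to 1715 CPM. It then stood at 1331 CPM at ZT9, 1210 CPM at ZT12, 1038 CPM at ZT15, 1163 CPM at ZT18 and 1159 CPM at ZT21. Mean miR-223 took the same course, at 54.8, 62.0 and 75.4 CPM from ZT0 to ZT6, then 52.0, 48.9 and 40.1 CPM at ZT9, ZT12 and ZT15. It stood at 46.8 CPM at ZT18 and 47.5 CPM at ZT21. When the 8 ZT groups were ordered by their means, every step between neighbours was smaller than the larger SD of the pair, for both miRNAs. Ordering by the mean makes such steps small, so this describes the order and tests nothing.

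**Figure D1:**
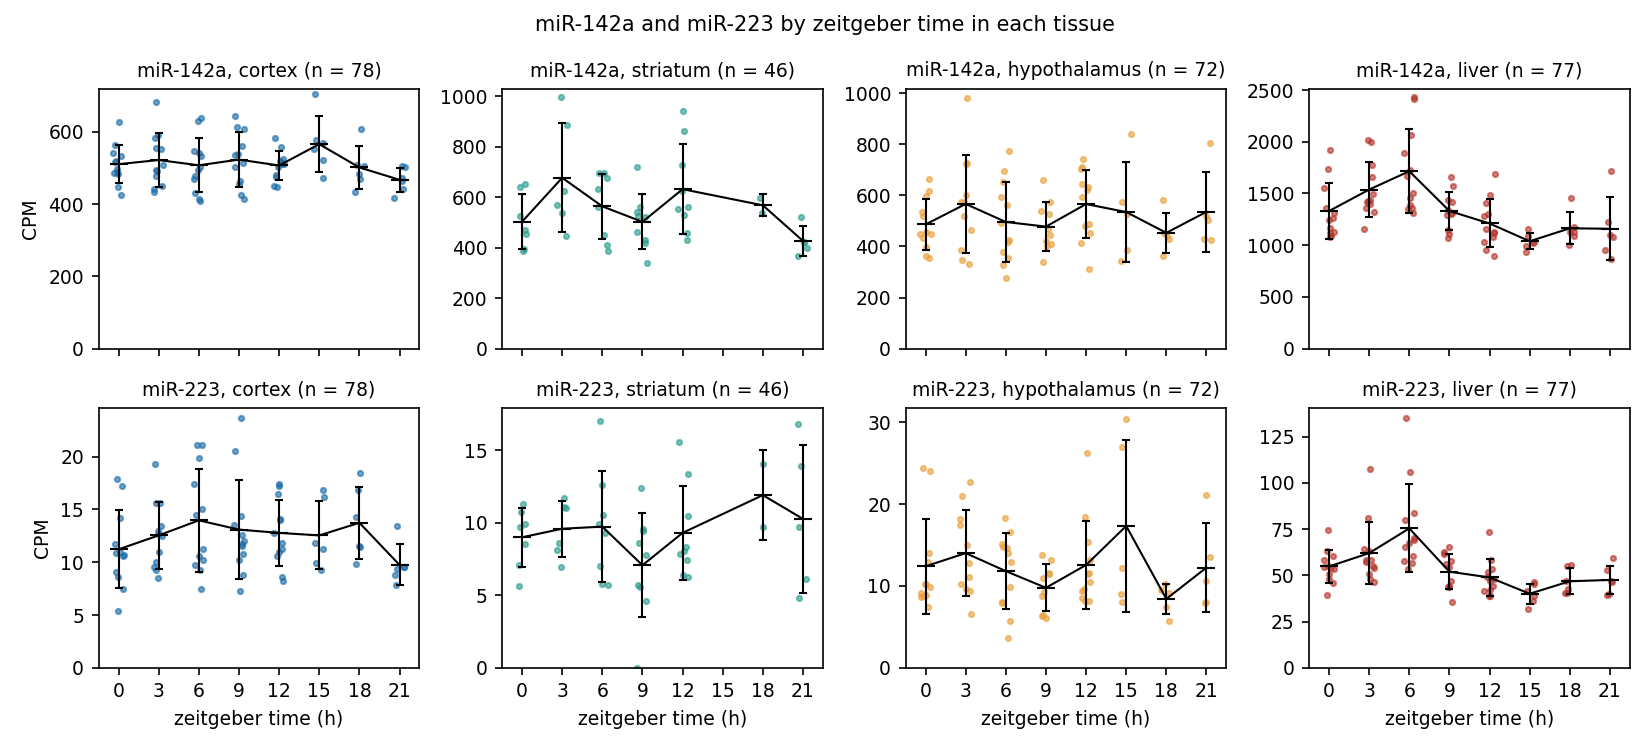
Levels of miR-142a (upper row) and miR-223 (lower row) in CPM against zeitgeber time in the 4 tissues. Points are libraries, and black lines join group means with SD bars. In liver both means are highest at ZT6 and lowest at ZT15. In no brain region do the miRNAs share both hours, though both are lowest at ZT21 in cortex and at ZT18 in hypothalamus.

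Both passages had their highest liver mean at ZT6. miR-142a averaged 1795 ± 505 CPM (SD, n = 6) at 6 h and 1636 ± 301 CPM (SD, n = 6) at 30 h. miR-223 averaged 74.4 ± 19.6 CPM (SD, n = 6) at 6 h and 76.5 ± 29.2 CPM (SD, n = 6) at 30 h. The bar at 30 h is wide because of 1 library at 135.2 CPM, the highest miR-223 value of all. The passages were compared over ZT0 to ZT12 with edgeR's quasi-likelihood test, on the log2 scale, with ZT as a term and Benjamini-Hochberg adjustment over the 232 miRNAs tested. In liver the second passage differed from the first by -0.07 ± 0.07 (SE) for miR-142a and by -0.05 ± 0.08 for miR-223, both with an adjusted p of 0.899. No miRNA was called in that comparison (0%), where 11 had an unadjusted p under 0.05 and DESeq2 called 1.

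**Figure D2:**
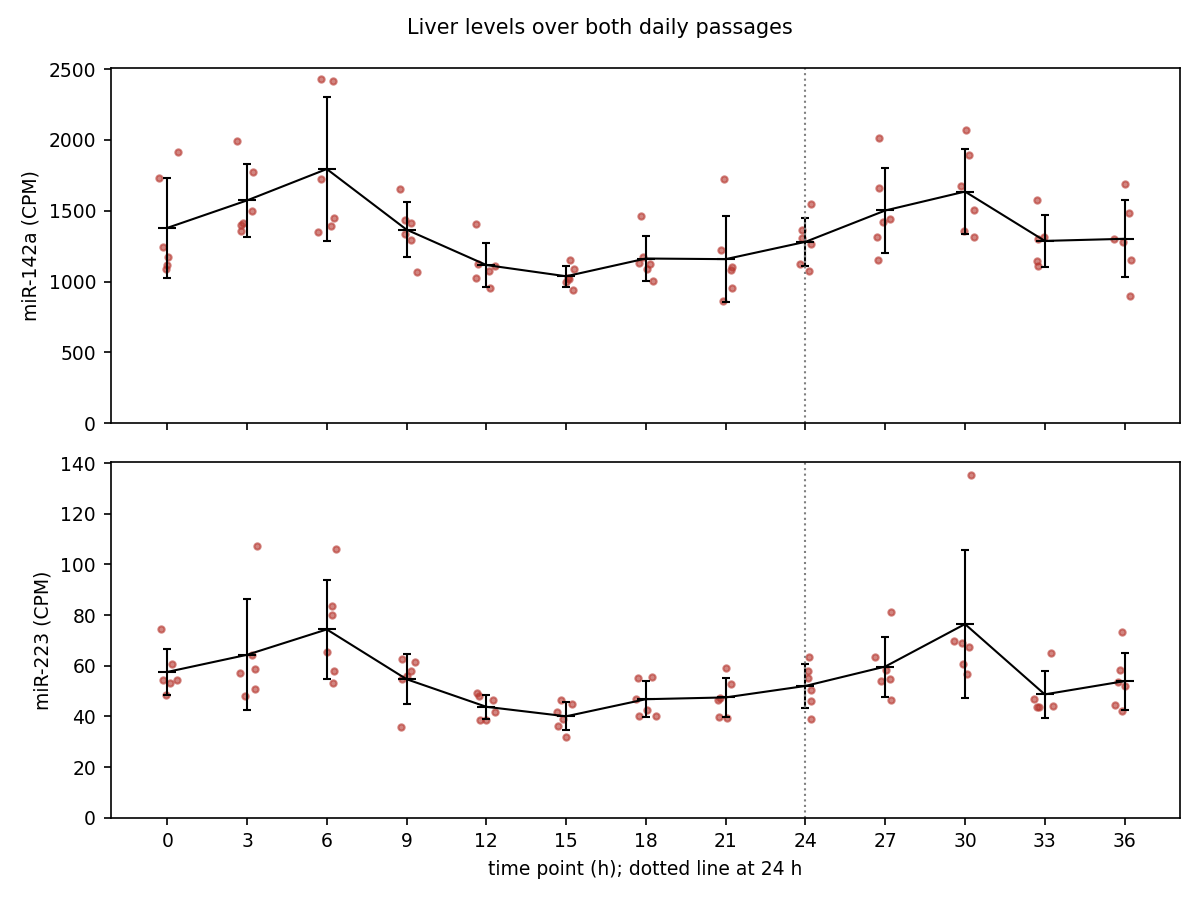
Liver levels in CPM of miR-142a (upper panel) and miR-223 (lower panel) over the 13 time points from 0 to 36 h. Points are libraries, and lines join means with SD bars; the highest means fall at 6 h and at 30 h.

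A cosine of 24 h was fitted to the liver counts, and its size is the log2 ratio of peak to trough. miR-142a had a size of 0.55 ± 0.09 (SE), or 1.47-fold, with the peak at ZT4.62 ± 0.546 h. miR-223 had a size of 0.65 ± 0.10, or 1.57-fold, with the peak at ZT4.49 ± 0.566 h. By size they were the 16th and 10th of 258 miRNAs tested in liver, where the median was 0.15, and 11 miRNAs (4.26%) had a curve with an adjusted p under 0.05. Since this curve chose the pair, these values describe it and carry no test. The liver libraries fell in 5 runs, each an unbroken series of library numbers under the same L code of the labels, a code whose meaning is not stated. In the 4 runs that held the hours, the mean at ZT3 and ZT6 over the mean at ZT15 to ZT21 ran from 1.18 to 1.58 for miR-142a. The same ratios for miR-223 were 1.65, 1.05, 1.64 and 1.63, so that 1 run had almost no difference for miR-223. That run held 5 libraries at ZT3 and ZT6 but only 2 at the later hours, both at ZT21 and none at ZT15, the hour of the lowest mean. With run as a term the sizes were 0.57 and 0.66.

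Other miRNAs of white blood cells were read beside the pair. This list, chosen with earlier results of these data known, held 6 miRNAs, of which 4 had enough counts to be tested in liver, and 2 of the 4 had a called curve. miR-150, a miRNA of mature lymphocytes, had a size of 1.33 ± 0.16 and a peak at ZT4.92 ± 0.407 h (edgeR quasi-likelihood test, adjusted p = 1.14e-09). miR-342, found in lymphocytes and also in brain, had a size of 0.48 ± 0.10 and a peak at ZT5.90 ± 0.702 h (edgeR, adjusted p = 0.00151). miR-155, which rises in activated white cells, had a size of 0.33 ± 0.18 with an adjusted p of 0.466 (edgeR). miR-146a, part of the feedback on inflammatory signalling, had a size of 0.34 ± 0.14 with an adjusted p of 0.257 (edgeR), and its fitted peak was at ZT13.9. The median size of the 4 was 0.41, beside 0.15 for all miRNAs tested. miR-142b and miR-146b were at a median of 0 counts.

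The white cell list as a sum did not follow the pair, and miR-146a, at 1050 CPM on average in liver, made up most of it. Its median sum over the liver libraries was 1343 CPM at ZT6 and 1314 CPM at ZT15, within a range of 681 to 2968 CPM over all liver libraries. Of the red cell list, 4 of 5 miRNAs were tested in liver and 0 had a called curve, with a median size of 0.27. miR-451a, the main miRNA of red cells, had a size of 0.53 ± 0.19 with a peak at ZT8.81 ± 1.33 h and an adjusted p of 0.152 (edgeR). Its highest liver library, at ZT9, held 6444 CPM against a median of 794 CPM over all liver libraries. The fit of miR-451a without that library was not run. The red cell sum had a median of 1039 CPM at ZT6 and of 832 CPM at ZT15, within 619 to 6966 CPM, and miR-451b was at a median of 0. With the level of miR-451a as a term, an alternative chosen after seeing the data, the liver sizes of miR-142a and miR-223 were 0.56 and 0.65. The vessel wall list held 3 tested miRNAs with sizes from 0.05 to 0.18, none called, and its median sum was 62671 CPM at ZT6 and 61485 CPM at ZT15.

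**Figure D3:**
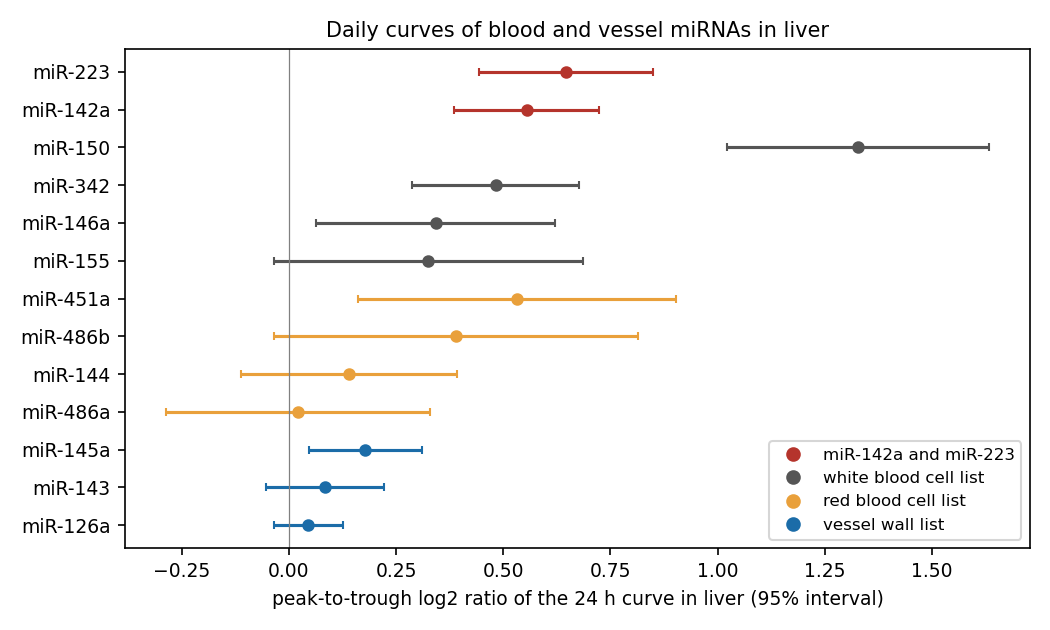
Peak-to-trough log2 ratios of the fitted 24 h curve in liver, with 95% intervals, for miR-142a, miR-223 and the tested miRNAs of 3 marker lists. miR-150 has the widest curve at 1.33, and the pair lie at 0.55 and 0.65; the sizes cannot be negative, so an interval that reaches 0 is no test.

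In the 3 brain regions neither miRNA had a daily curve that passed the test. In cortex, miR-142a had a size of 0.05 ± 0.07 (SE) and miR-223 of 0.25 ± 0.14, each with an adjusted p of 0.989 (edgeR quasi-likelihood test), where 0.242% of 413 miRNAs were called. In striatum the sizes were 0.18 ± 0.23 and 0.36 ± 0.24, each with an adjusted p of 0.996, where 0.487% of 411 were called. In hypothalamus they were 0.06 ± 0.14 and 0.09 ± 0.22, each with an adjusted p of 0.999991, where 0.25% of 400 were called. The upper 95% bounds of the size for miR-142a were 0.18 in cortex, 0.63 in striatum and 0.34 in hypothalamus. For miR-223 they were 0.52, 0.84 and 0.53, so that its brain curves were bounded less closely in each region. The striatum size of miR-223 fell to 0.13 without ZT21 replicate 3. The difference in curve between liver and brain was not tested, since the liver curve chose the pair.

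The hour of the highest mean of miR-142a in each brain region differed from that in liver, while striatum and hypothalamus had the same hour. miR-142a had its highest mean at ZT15 in cortex, with 566 ± 77.7 CPM (SD, n = 6), and its lowest at ZT21, with 467 ± 34.0 CPM (SD, n = 6). In striatum and hypothalamus its highest means were at ZT3, with 677 ± 215 CPM (SD, n = 6) and 567 ± 193 CPM (SD, n = 11). Its lowest were 427 ± 58.1 CPM (SD, n = 5) at ZT21 in striatum and 453 ± 78.9 CPM (SD, n = 5) at ZT18 in hypothalamus. In each of the 3 regions the highest and lowest groups overlapped. The widest spread of miR-223 within a brain group was in hypothalamus at ZT15, where the 5 libraries held 8.07, 9.03, 12.2, 26.9 and 30.4 CPM. In this group 2 libraries stood far above the other three. Cortex means of miR-223 ran from 9.74 ± 1.94 CPM (SD, n = 6) at ZT21 to 13.96 ± 4.90 CPM (SD, n = 12) at ZT6. ZT6 was also the hour of its highest mean in liver. Its highest mean was at ZT18 in striatum, from 2 libraries, and at ZT15 in hypothalamus.

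In cortex, miR-223 was lower in the second passage. Its mean was 11.8, 13.2, 15.4, 15.7 and 14.1 CPM at 0, 3, 6, 9 and 12 h, and 10.7, 11.9, 12.6, 10.5 and 11.4 CPM at 24, 27, 30, 33 and 36 h. Each of the 5 hours had a lower mean in the second passage, although the libraries overlapped. The difference was -0.33 ± 0.11 (SE) on the log2 scale with an adjusted p of 0.0171 (edgeR quasi-likelihood test), where 14.3% of 377 miRNAs were called lower and 32.9% called either way. With run as a term it was -0.24 with an adjusted p of 0.166, so the call did not hold. miR-142a differed by -0.11 ± 0.06 with an adjusted p of 0.113. In striatum the differences were -0.06 ± 0.14 for miR-142a and 0.30 ± 0.16 for miR-223, with adjusted p of 0.922 and 0.409. In hypothalamus they were 0.05 ± 0.12 and 0.08 ± 0.15, both with an adjusted p of 0.994. By edgeR, 0% of miRNAs were called in either of these regions, with 47 and 4 of them under an unadjusted p of 0.05 and no call by DESeq2.

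Liver held more of both miRNAs than any brain region. miR-142a averaged 1355 ± 329 CPM (SD, n = 77) in liver, with a lowest, median and highest library of 864, 1308 and 2432 CPM. In cortex it averaged 513 ± 64.3 CPM (SD, n = 78), with 409, 505 and 704 CPM. In striatum it averaged 556 ± 153 CPM (SD, n = 46), with 339, 533 and 996 CPM, and in hypothalamus 517 ± 142 CPM (SD, n = 72), with 276, 491 and 982 CPM. The liver range thus overlapped the upper ends of striatum and hypothalamus but not cortex.

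miR-223 averaged 55.5 ± 16.7 CPM (SD, n = 77) in liver, with a lowest, median and highest library of 31.9, 53.6 and 135.2 CPM. In cortex it averaged 12.5 ± 3.79 CPM (SD, n = 78), with 5.41, 11.5 and 23.7 CPM. In striatum it averaged 9.15 ± 3.36 CPM (SD, n = 46), with 0, 8.96 and 17.0 CPM, and in hypothalamus 12.3 ± 5.49 CPM (SD, n = 72), with 3.66, 10.4 and 30.4 CPM. Every liver library was above every brain library for this miRNA, except that the limit for the striatum library at 0 counts lies within the liver range. The margin was narrow, with 31.9 CPM as the lowest in liver and 30.4 CPM as the highest in hypothalamus. How many other miRNAs separate in this way was not counted.

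**Figure D4:**
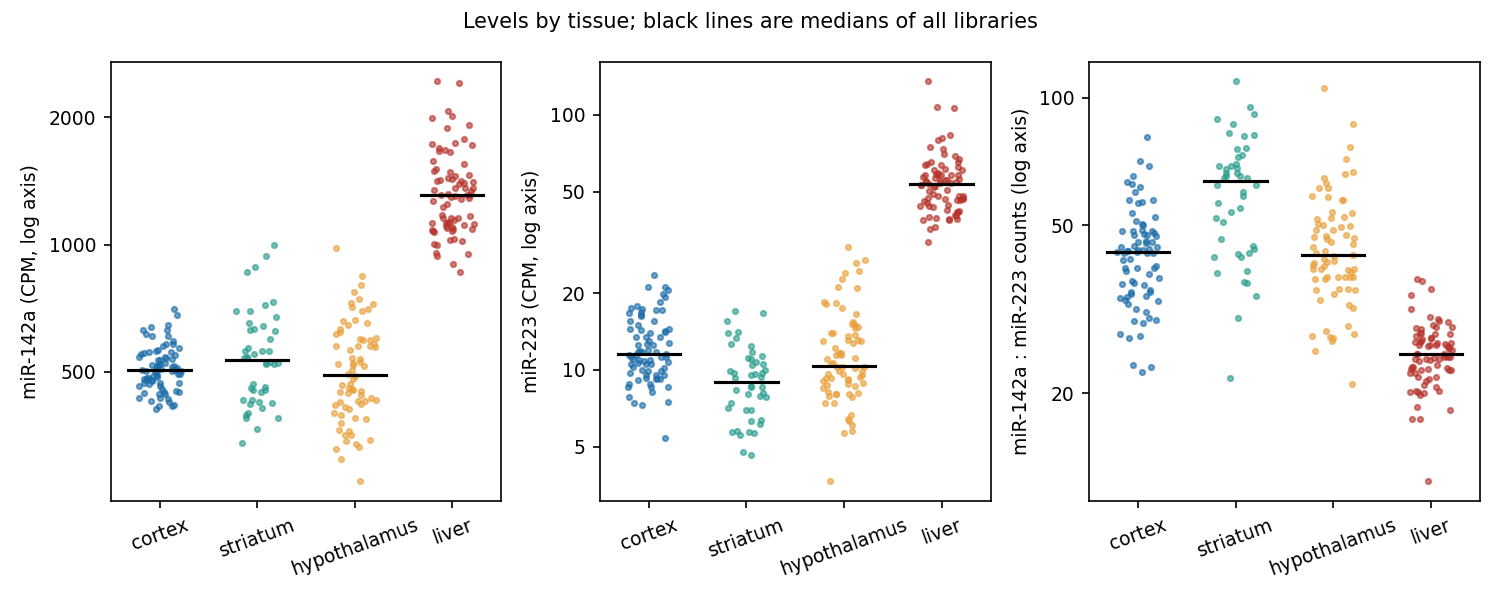
Levels of miR-142a and miR-223 in CPM, and the ratio of their counts, by tissue on log axes. Points are libraries and black lines are medians; liver is highest for both miRNAs and lowest for the ratio, and the striatum library with 0 counts of miR-223 is not drawn in the middle panel.

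On TMM-scaled counts, with ZT as a term, miR-142a was higher in liver than in cortex, striatum and hypothalamus by 3.30 ± 0.06, 3.19 ± 0.07 and 3.34 ± 0.06 (SE) on the log2 scale. The adjusted p-values were 9.58e-145, 9.79e-119 and 1.27e-142 (edgeR quasi-likelihood test over 414 miRNAs). miR-223 was higher by 4.05 ± 0.07, 4.48 ± 0.09 and 4.14 ± 0.08, with adjusted p-values of 7.12e-139, 3.10e-120 and 2.13e-136 (edgeR). In the same fits 35.5%, 35.3% and 36.7% of all miRNAs were called higher in liver, that is 147, 146 and 152 of them, and 62.3%, 62.6% and 59.4% called lower, which left few uncalled (97.8%, 97.8% and 96.1% called either way). The median over all miRNAs was -1.29, -1.39 and -1.27.

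These sizes depend on the scaling. With library totals alone, miR-142a was higher in liver by 1.39, 1.29 and 1.39 and miR-223 by 2.14, 2.56 and 2.18. The median over all miRNAs was then -3.07, -3.31 and -3.21, and the miRNAs called higher in liver numbered 80, 87 and 83. Relative to that median, miR-142a stood higher in liver than in cortex by 4.59 with TMM scaling and by 4.46 with library totals, and miR-223 by 5.34 and 5.20. Tissue and run cannot be told apart here, since liver and brain libraries shared a run through 1 hypothalamus library alone.

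The rest of the white cell list was split between the tissues. Of its 4 tested miRNAs, 2 were called higher in liver and 2 lower in each of the 3 comparisons with brain. miR-146a and miR-155 stood higher in liver than in cortex by 3.03 ± 0.10 and 2.65 ± 0.08 (SE). miR-150 and miR-342 stood lower in liver, by -2.78 ± 0.09 and -2.61 ± 0.05 against cortex. In CPM, miR-150 averaged 130 ± 61.1 (SD, n = 77) in liver and 3256 ± 1147 (SD, n = 78) in cortex. The 2 white cell miRNAs whose liver curves passed the test were thus the ones with lower levels in liver than in brain.

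Among the brain regions the differences were small beside those with liver, in fits where 76.6% of all miRNAs were called between cortex and striatum, 87% between cortex and hypothalamus and 75.6% between striatum and hypothalamus. By direction, 35.5% were higher in cortex and 41.1% in striatum in the first, 40.8% in cortex and 46.1% in hypothalamus in the second, and 37.7% in striatum and 37.9% in hypothalamus in the third. With DESeq2's size factors the numbers called higher in the first-named region went from 147 to 108, from 169 to 132 and from 156 to 115. miR-223 was lower in striatum, by 0.44 ± 0.10 (SE) against cortex and by 0.34 ± 0.10 against hypothalamus on the log2 scale (edgeR, adjusted p = 1.41e-05 and 9.89e-04). miR-223 in cortex and hypothalamus differed by 0.10 ± 0.08 with an adjusted p of 0.242 (edgeR), and by -0.17 with DESeq2's size factors. miR-142a differed by -0.11 ± 0.07 between cortex and striatum, with an adjusted p of 0.130 (edgeR). Between cortex and hypothalamus it differed by 0.05 ± 0.06, with an adjusted p of 0.434 (edgeR), and by -0.22 with DESeq2's size factors. It was higher in striatum than in hypothalamus by 0.15 ± 0.07, with an adjusted p of 0.0299 (edgeR), but with the animal as a block the adjusted p was 0.0841. The order of the 3 regions for miR-142a was therefore not settled, and for miR-223 striatum was the lowest.

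The ratio of miR-142a to miR-223 counts in a library does not depend on scaling. Its geometric mean was 24.6 in liver, 41.7 in cortex, 57.8 in striatum and 43.4 in hypothalamus, after 0.5 was added to each count. Within animals the log2 ratio was lower in liver than in cortex by 0.76 ± 0.05 (SE), with the same sign in 74 of 77 animals. Against striatum it was lower by 1.27 ± 0.09, in 43 of 44 animals, and against hypothalamus by 0.80 ± 0.06, in 70 of 71 animals. Each of these had an adjusted p of 2e-05 in a two-sided sign-flip permutation test of 100000 draws, whose smallest unadjusted p is 1e-05. In words, liver held more miR-223 for each miR-142a than any brain region did.

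Among the brain regions, striatum had the highest ratio. It exceeded cortex by 0.49 ± 0.11 in 33 of 45 animals and hypothalamus by 0.44 ± 0.11 in 32 of 43 animals, with adjusted p of 1.5e-04 and 1.8e-04 in the permutation test. Cortex and hypothalamus differed by -0.08 ± 0.07, with the same sign in 38 of 72 animals and an adjusted p of 0.301. Through the day in liver, the geometric mean of the ratio ran from 23.0 at ZT6 to 25.9 at ZT15. As the pair was chosen for a joint curve there, this is a description.

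Within time points, libraries with more miR-142a also had more miR-223 in each of the 4 tissues. For this the deviations of log2 CPM from the mean of the time point were correlated, which removes the daily curve. Pearson's r was 0.51 in liver (n = 77), 0.70 in hypothalamus (n = 72), 0.55 in striatum (n = 46) and 0.43 in cortex (n = 78). Spearman's rho was 0.51, 0.70, 0.58 and 0.39 in the same order. The permutation p of r, shuffled within time points and adjusted over the 4 tissues, was 2e-05, 2e-05, 4.13e-04 and 6.2e-04, and that of rho 2e-05, 2e-05, 5.6e-04 and 0.00214. Without the 2 libraries farthest from the median of miR-142a, r was 0.51, 0.70, 0.51 and 0.45. With run as a term it was 0.50, 0.63, 0.38 and 0.35, and rho in striatum was 0.29 with an adjusted permutation p of 0.0853. The differences in r between tissues were not tested.

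**Figure D5:**
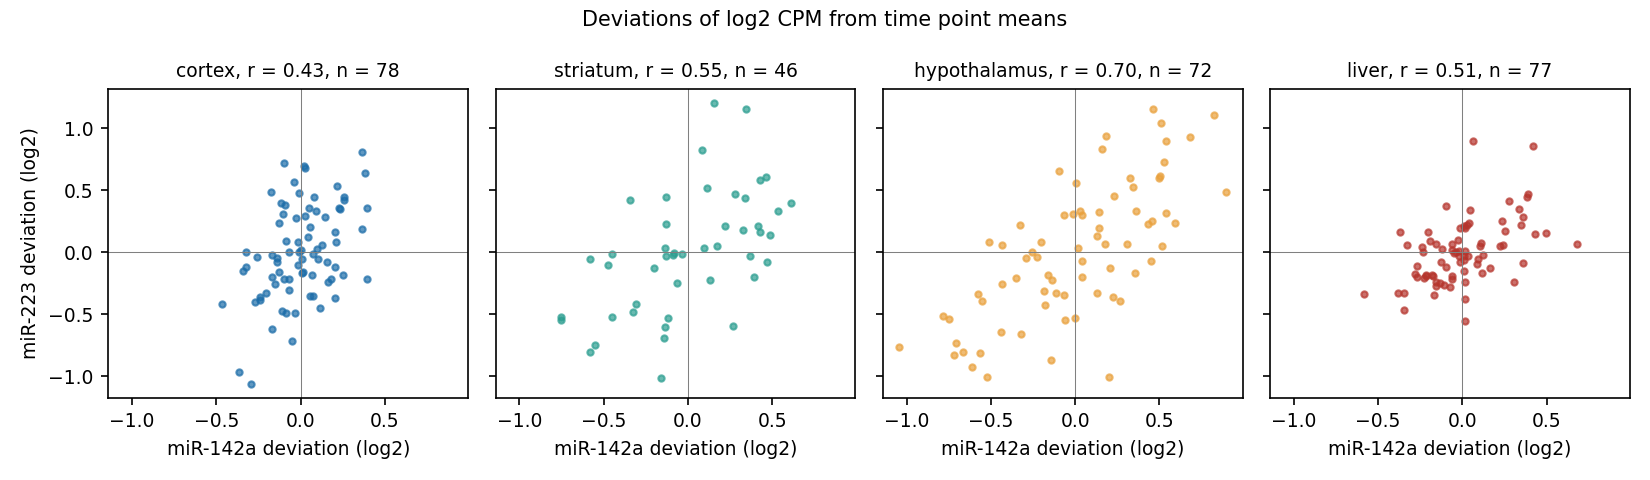
Deviation of miR-223 against deviation of miR-142a from the mean of the time point, in log2 CPM, for the libraries of each tissue. The points rise together in all panels, with r from 0.43 in cortex to 0.70 in hypothalamus.

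Some markers were read beside the pair in the same way: miR-150 and miR-342 of white cells, miR-451a of red cells and miR-126a of vessels. Both of these white cell miRNAs had a called liver curve. The other miRNAs of the lists, among them miR-146a and miR-155, were not read in this way. With miR-6240, described last, the markers that were read made 40 relations, and 18 of them passed an adjusted permutation p of 0.05. The share that passes among all pairs of miRNAs was not computed, so this count has no background to be read against. It also includes the relations of miR-6240, which was added after seeing the data. In liver, miR-142a varied with miR-150 (r = 0.54, adjusted permutation p = 8.89e-05) and with miR-342 (r = 0.33, adjusted permutation p = 0.0222). miR-223 in liver varied with miR-342 (r = 0.36, adjusted permutation p = 0.00611), while its r with miR-150 was 0.18 (adjusted permutation p = 0.208), and 0.29 with run as a term (adjusted permutation p = 0.0326). The red cell miR-451a had r of -0.10 with miR-142a and of 0.02 with miR-223 in liver, and the endothelial miR-126a had 0.21 and 0.07. None of these 4 passed. A term for run brought miR-126a with miR-142a in liver past it, at r = 0.29 (adjusted permutation p = 0.0339).

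In brain, some relations with miR-150 and miR-342 had the opposite sign. Unlike the pair, these 2 miRNAs had higher levels in brain than in liver. In cortex and liver they averaged 3256 and 130 CPM for miR-150, and 1479 and 64.7 CPM for miR-342. Which cells held them in brain was not tested, so their brain values are not read as levels of white cells. In striatum, miR-342 had an r of -0.50 with miR-223 (adjusted permutation p = 0.0118) and of -0.33 with miR-142a (adjusted permutation p = 0.0851). These were -0.59 and -0.57 with run as a term, with adjusted permutation p of 0.00302 and 9.6e-04. Without the 2 libraries farthest from the median, the r with miR-223 was -0.37 and did not pass (adjusted permutation p = 0.0825). In hypothalamus miR-342 had an r of -0.18 with miR-142a, and of -0.33 with run as a term (adjusted permutation p = 0.0326). miR-150 had r between -0.25 and 0.09 with the pair in the 3 brain regions, none of which passed. Its r with miR-142a in cortex was 0.37 with run as a term (adjusted permutation p = 0.0141).

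In hypothalamus the red cell miR-451a and the endothelial miR-126a varied with the pair. miR-451a had an r of 0.69 with miR-142a and of 0.56 with miR-223 there, and miR-126a had 0.80 and 0.44, with adjusted permutation p of at most 0.00329. With miR-451a as a term in hypothalamus, the r between miR-142a and miR-223 was 0.53 rather than 0.70. In cortex and striatum, miR-126a had r of 0.72 and 0.79 with miR-142a and of 0.54 and 0.62 with miR-223. With run as a term, the r of miR-126a with miR-223 in hypothalamus was 0.19, with an adjusted permutation p of 0.230, and the others named here still passed. miR-451a passed in neither cortex nor striatum without that term. With it, miR-451a passed in cortex with miR-142a and miR-223 (r = 0.38 and 0.34, adjusted permutation p = 0.00302 and 0.0187). In striatum its r with miR-142a was then -0.42 (adjusted permutation p = 0.0354, but 0.0635 by rho). Its r with miR-223 there was 0.34 and did not pass (adjusted permutation p = 0.0534). The differences between tissues in these values were not tested.

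One hairpin that is a marker of no cell type in the lists, miR-6240, moved with miR-142a in all 3 brain regions. It was added after seeing the data, and was the nearest of 307 miRNAs to miR-142a over these same cortex libraries (r = 0.81). Its cortex p-values are therefore no independent test and serve as a description. Its r with miR-142a was 0.79 in cortex, 0.79 in striatum and 0.77 in hypothalamus, but 0.04 in liver. These were 0.53, 0.37, 0.42 and 0.10 with run as a term, and the 3 brain values still passed (adjusted permutation p of at most 0.0383). Its r with miR-223 was 0.34, 0.48 and 0.45 in the brain regions, which passed, and 0.08, 0.16 and 0.12 with run as a term, which did not. With miR-6240 as a term, an alternative chosen after seeing the data, the r of miR-142a with miR-223 was 0.51 in liver and 0.62 in hypothalamus, but 0.29 in cortex and 0.33 in striatum. The adjusted permutation p was then 0.0413 in cortex and 0.102 in striatum, so the striatum relation did not pass. The part of miR-6240 in the brain values was not tested further.

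The miRNAs most like each member were taken by Pearson's r of log2 CPM over all libraries of a tissue, among miRNAs with a mean of at least 10 CPM. In liver, where 175 miRNAs qualified over 77 libraries, each member was the nearest to the other with r = 0.71. Next came miR-150 (r = 0.69) and miR-335 (r = 0.54) for miR-142a, and miR-342 (r = 0.52) and miR-150 (r = 0.50) for miR-223. In cortex, with 307 miRNAs over 78 libraries, miR-142a was nearest to miR-6240 (r = 0.81), miR-5100 (r = 0.77) and miR-1291 (r = 0.75). miR-223 there was nearest to miR-10b (r = 0.63), miR-126a (r = 0.57) and miR-27a (r = 0.53). The 2 members were 48th and 7th in one another's cortex order, with r = 0.46. These values share the libraries and include differences between hours and runs, and describe likeness only. As the pair was chosen for its joint daily curve in liver, the nearness of its members there follows in part from that choice. Within time points their r in liver was 0.51.

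Levels were also compared between tissues of the same animal. Over 12 relations, for 2 miRNAs and 6 pairs of tissues, r of the deviations from time point means lay between -0.20 and 0.20 in 10. The other 2 were between striatum and hypothalamus (n = 43 animals), with r = -0.43 and rho = -0.47 for miR-142a and r = -0.41 and rho = -0.43 for miR-223. By r none of the 12 passed, with adjusted permutation p of 0.0842 and 0.131 for these 2, and by rho miR-142a had 0.0425 and miR-223 0.0733. With run as a term r was -0.18 and -0.34, with adjusted permutation p of 0.938 and 0.324. Without the low-count striatum library and striatum ZT21 replicate 3, r was -0.43 and -0.50 (n = 42), and both passed with an adjusted permutation p of 0.0211. Only the 6 relations that hold striatum were adjusted together there. The unadjusted permutation p of miR-142a was 0.00702 with and without these libraries, and that of miR-223 went from 0.0218 to 0.00617. Between liver and cortex, over 77 animals, r was 0.20 for both miRNAs, with an adjusted permutation p of 0.343.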

How the data were processed

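The authors' deposited tables hold whole-number counts per hairpin and library, not normalized. Per the submitters' processing notes, HTSeq 0.10.0, STAR 2.7.3a and the GRCm38 (mm10) build were used; strand use, trimming and reads with several matches are not given in the sources used here. All 273 columns were matched to samples by their labels. miR-142a, miR-223 and the marker lists were chosen with earlier results of these data known; named are the pair, the white and red cell lists, and the 3 miRNAs most like each member. Tests used edgeR 4.0.16 in R 4.3.3 (TMM, filterByExpr, quasi-likelihood F test, Benjamini-Hochberg, threshold 0.05), with DESeq2 1.42.0 as an alternative, and were tested on simulated data. Correlations and ratios used Python 3.11.15 with SciPy 1.17.1 and NumPy 2.4.6, on log2 CPM (TMM-scaled, 0.5 added) and 100000 permutations. Libraries of a tissue came from separately named animals. Animal names tie libraries across tissues, whereas replicate numbers follow the library numbers within a time group and tie no animals.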

Additional observations from a re-analysis of the deposited data

Results flagged for a closer look

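In groups of 4 to 10 libraries, a library was marked when its gap to the nearest other exceeded Dixon's 95% critical value. This marked 3 of 32 combinations of miRNA and group, where chance alone gives about 1 in 20, or 1.6. Each group was taken once for each miRNA, so the combinations are not independent. miR-142a in hypothalamus at ZT21 was 804.3 CPM in replicate 2, against 423 to 518 CPM in the other 4. miR-142a in liver at ZT18 was 1461 CPM in replicate 1, against 1004 to 1172 CPM in the other 5. miR-223 in cortex at ZT21 was 13.5 CPM in replicate 4, from 42 counts, against 7.80 to 9.56 CPM in the other 5.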

How the results depend on the processing

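The liver sizes of the daily curve stayed between 0.47 and 0.61 for miR-142a and between 0.58 and 0.69 for miR-223 under 9 alternatives each. No alternative called a brain curve of either miRNA. Leaving out single libraries of groups with 2 to 5 gave brain sizes from 0.12 to 0.26 (miR-142a) and 0.13 to 0.48 (miR-223) in striatum, and from 0.03 to 0.09 and 0.02 to 0.16 in hypothalamus, and changed no call between tissues. Leaving out hypothalamus ZT0 replicate 12, the brain library in a liver run, was chosen after seeing the data and is included there. The passages hold none of the small groups. With the replicate number as a block, the cortex passage difference of miR-223 was -0.24 (adjusted p = 0.115), as with run as a term (-0.24, 0.166). In hypothalamus the block gave 60 curves against 1, and miR-142a there had a size of 0.34 (adjusted p = 0.137); the cause was not tested. With run as a term the hypothalamus passage differences turned to -0.0175 and -0.0080. Between cortex and striatum, miR-142a was called with DESeq2's size factors (-0.24) and with DESeq2 (-0.23). Between cortex and hypothalamus, DESeq2's size factors, library totals, DESeq2 and run as a term gave -0.22, -0.0027, -0.22 and 0.17 for miR-142a. For miR-223 DESeq2's size factors, DESeq2 and run as a term gave -0.17, -0.17 and 0.24. Between striatum and hypothalamus, miR-142a lost its call with DESeq2's size factors (0.0146), library totals (0.10), no filter (0.11), DESeq2 (0.0130) and the animal block (0.14), whose pairing comes from the animal names. The animal block changed no other call. DESeq2's size factors moved the median of all miRNAs from -0.04 to -0.31 between cortex and hypothalamus, from -0.04 to -0.18 between cortex and striatum and from 0.0021 to -0.13 between striatum and hypothalamus. The coupling in striatum lost its call with miR-6240 as a term (0.33). Counts over all miRNAs that moved over 1.5 times were the cortex curves (1 against 8 with DESeq2, 7 with the block), liver curves (11 against 23 with the block and 7 with miR-451a as a term) and cortex passage calls (124 against 71 with the block). The unfiltered fits called 731, 715 and 737 of 1004 miRNAs between liver and brain. Run as a term was not run for liver against brain. The depth of miR-223 in brain limits what its curves can show.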
